A study of Mus musculus and Callithrix jacchus with 22 samples.

Results

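Cluster 9 was a group of cells from mouse cortex at postnatal day 7 (P7) that received no cell type in the annotation of these single-cell ATAC-seq data. Its members were chosen by the cluster number 9 that the deposited mouse table gives them, which the authors derived from measured values, the counts of reads in peaks of each cell. They numbered 834 of 6127 P7 cells, of 19145 mouse cells at all ages and of 35064 cells in the series. Every one of them came from a P7 library and was named Unknown. Because the cluster was drawn from these same cells, its comparison with other cells is given here as a description and no test was made. The tables hold reads and peaks per cell but no gene-level values, so no marker gene could be read in cluster 9 and it is called here by its number alone.

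The P7 samples were 4 libraries of combined somatosensory and motor cortex from wild-type C57BL/6 mice, with no treatment named. The study describes unfractionated tissue from wild-type animals for this assay. The labels also carry a protocol for sorting Td-tomato neurons, which the study's methods give for the bulk samples of its transgenic lines. The titles name the libraries in 2 series, P7.10.19 and Pool, each with a replicate 1 and a replicate 2. Nothing in the labels says whether the libraries came from separate animals, so the spread between them may be technical. Cells were fixed and tagged in a plate with barcoded transposase, pooled, and sorted into a second plate before amplification. The P7 libraries held 1431 to 1784 cells and 5535097 to 5865515 reads. Shares below are of the cells that passed these steps, and the make-up of the tissue was not measured.

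ATAC-seq marks open chromatin: the transposase Tn5 cuts accessible DNA, and each cell's cuts show the promoters and enhancers that are open in it. In the study, clusters were scored by sets of known marker genes. At the end of the first postnatal week mouse cortical neurons have reached their layers, thalamic axons have arrived in layer IV, and synapses are forming. The annotation named 8 types at P7. The pyramidal neurons, which are excitatory, were callosal neurons (CPN, which link the hemispheres), layer IV neurons (targets of thalamic input), subcerebral neurons (ScPN, which project to brainstem and spinal cord) and corticothalamic neurons (CthPN, which project to the thalamus). The inhibitory interneurons were Inh_Sst cells, named for somatostatin, and Inh_Npy cells, named for neuropeptide Y. The glia were astrocytes (Astro), which support synapses and blood vessels, and oligodendrocyte precursors (OPC), which give rise to myelin-forming cells.

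Cluster 9 stood apart from the rest of the unassigned mouse cells by its size. The 1697 unassigned mouse cells fell into 25 groups, a group being the cells of 1 cluster at 1 age. Cluster 9 was the only one of these with at least 100 cells. The other 24 groups held 863 cells, and the largest had 92. All 31 named groups had at least 102 cells. Per the methods of the study, clusters were split by age and those under 100 cells were filtered out. The methods also describe the removal of outlier clusters before the final annotation, with very low complexity as an example. Cells without an assigned identity were left out of the later analyses. The sources used here do not say why cluster 9, which lay above the limit of 100 cells, carried no name.

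The cluster also made up most of the unassigned cells of its age. It held 70.6% of the 1182 unassigned P7 cells and 49.1% of all unassigned mouse cells. The unassigned share of cells was 4.99% in P1 libraries, 19.3% in P7 libraries and 3.34% in P21 libraries. The unassigned cells outside cluster 9 made up 5.68% of all P7 cells, with cluster 9 kept in that total. The 10 other unassigned groups at P7 ranged from 1 to 91 cells, and the largest, cluster 23, was split almost evenly between ages, with 92 cells at P1 and 91 at P7.

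By size cluster 9 ranked 4th among the P7 clusters. CPN cluster 3 had 1449 cells, layer IV cluster 4 had 1141, and ScPN cluster 8 had 846. Cluster 9 had 834, and Inh_Sst cluster 6 followed with 571. The 4 largest P7 clusters were also the only ones of 31 whose cells all came from P7.

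**Figure D1:**
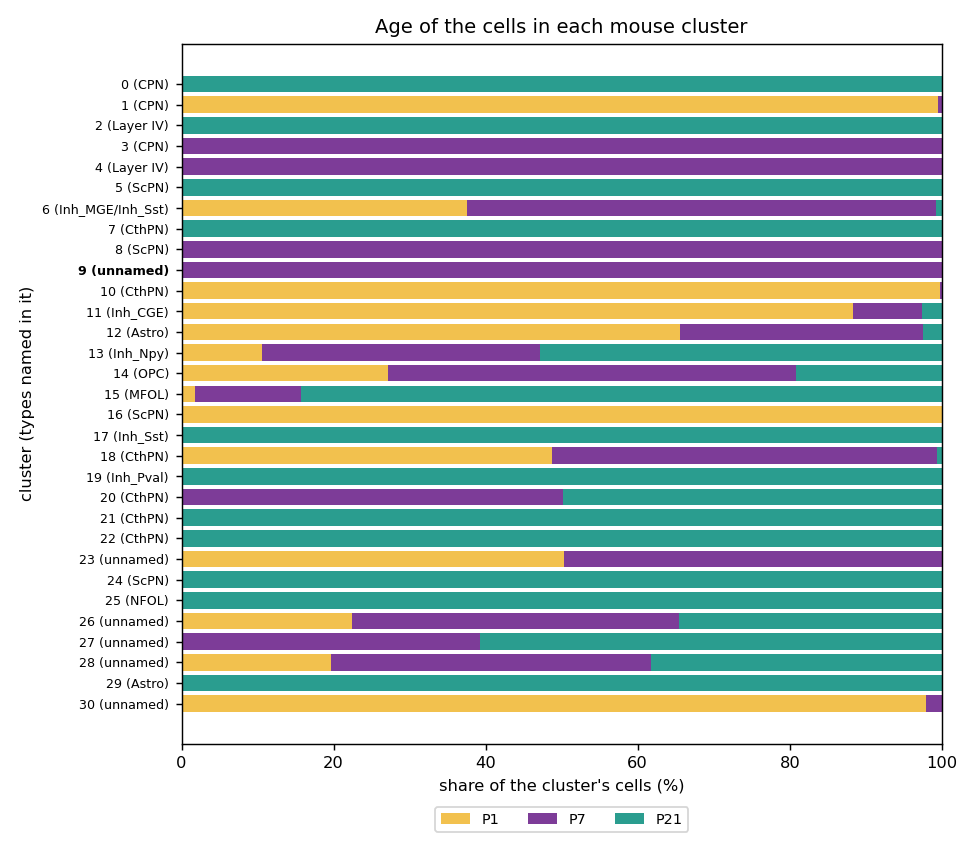
The horizontal bars show, for each of the 31 mouse clusters, the share of its cells (in %) from P1, P7 and P21, with the cell types named in it in brackets and cluster 9 in bold. Clusters 3, 4, 8 and 9 are P7 from end to end, whereas the interneuron and glial clusters that hold P7 cells are mixed in age.

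Clusters of a single age were more frequent among the pyramidal clusters than among the interneuron or glial ones, but occurred in each class. Of 15 clusters with a pyramidal name, 13 had at least 99% of their cells at 1 age. The same held for 2 of 5 interneuron clusters and 2 of 5 glial clusters. Of the 6 clusters without any name, cluster 9 was the one that met it. Over all 31 clusters 18 met it, 4 of them at P7. The plot of ages by cluster shows that all interneuron and glial types of P7 lay in clusters shared with another age: Inh_Sst in cluster 6 beside 347 P1 cells, Inh_Npy in cluster 13 beside 265 P21 cells, astrocytes in cluster 12 beside 402 P1 cells and OPC in cluster 14 beside 129 P1 cells. These counts describe how the clusters were composed and give no identity to cluster 9.

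Corticothalamic neurons were the one pyramidal type of P7 without a cluster of their own at that age. The 304 CthPN cells of P7 were spread over cluster 18, with 176 cells beside 169 of P1, and cluster 20, with 128 cells beside 127 of P21. At P1 most CthPN cells lay in cluster 10, with 800 cells, and at P21 in cluster 7, with 900, and both were at least 99% of 1 age. Cluster 9 outnumbered CthPN cluster 18 by 4.57 and 4.75 cells to 1 in the P7.10.19 libraries and by 6.80 and 3.43 to 1 in the Pool libraries. Against cluster 20 the figures were 5.49, 6.33, 8.50 and 5.85 to 1 in the same order. The gene-level values needed to compare their open chromatin were not used here.

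Cluster 9 was found in every P7 library at a similar level. It held 192 of 1475 cells in P7.10.19 replicate 1, a share of 13.0% (95% exact Clopper-Pearson interval 11.3 to 14.8). It held 171 of 1431 cells in P7.10.19 replicate 2, or 11.9% (10.3 to 13.7). It held 272 of 1784 cells in Pool replicate 1, or 15.2% (13.6 to 17). It held 199 of 1437 cells in Pool replicate 2, or 13.8% (12.1 to 15.7). Both Pool libraries lay above both P7.10.19 libraries, but the intervals of neighbours overlapped, and those of the lowest and the highest library met between 13.6% and 13.7%. The mean was 13.5% ± 1.39 (SD, n = 4 libraries), with 12.5% in the P7.10.19 series and 14.5% in the Pool series. With 2 libraries against 2, an exact permutation test cannot give a p below 0.333, so the series were not tested. The intervals cover counting error only.

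**Figure D2:**
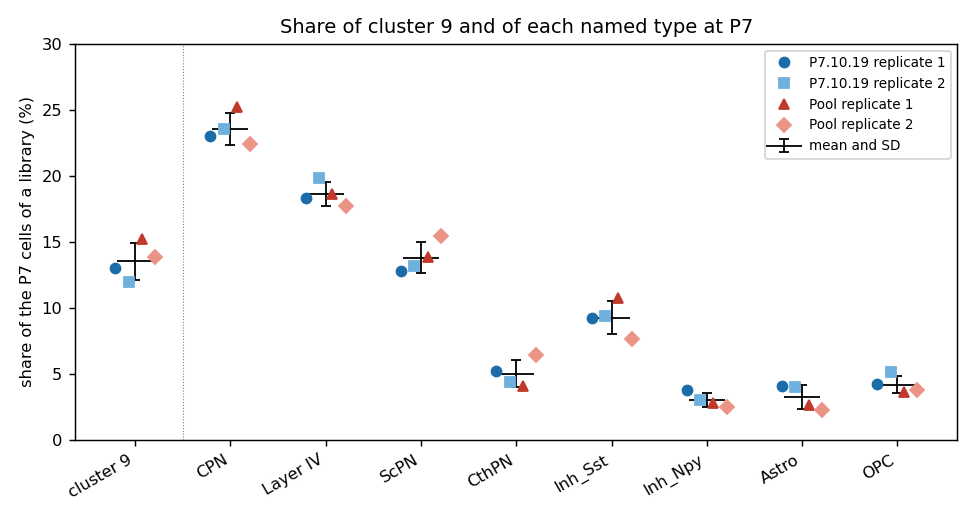
Each point is the share (in %) of a library's P7 cells that belonged to cluster 9 or to a named type, and the black bars give the mean and SD of the 4 libraries. Cluster 9 sits at the height of ScPN, between layer IV and Inh_Sst, and its points lie between 11.9% and 15.2%.

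In this plot of shares by library, cluster 9 overlapped with 1 named type. ScPN made up 13.8% ± 1.17 of P7 cells (SD, n = 4), from 12.8% to 15.4%. Layer IV, at 18.6% ± 0.888, lay above cluster 9 in every library, and CPN, at 23.6% ± 1.21, further above. Inh_Sst made up 9.24% ± 1.25, CthPN 5.02% ± 1.05, OPC 4.18% ± 0.662, astrocytes 3.23% ± 0.936 and Inh_Npy 3.01% ± 0.521, and each lay below cluster 9 in every library.

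The number of cluster 9 cells kept the steadiest proportion to callosal and subcerebral neurons. For each CPN cell there were 0.565 and 0.507 cells of cluster 9 in the P7.10.19 libraries and 0.604 and 0.618 in the Pool libraries, a coefficient of variation of 8.65%. For each ScPN cell there were 1.02, 0.910, 1.101 and 0.896 in the same order, a coefficient of variation of 9.84%. Layer IV followed at 13.1%, Inh_Sst at 15.5%, Inh_Npy at 22.4%, OPC at 23.8% and CthPN at 25.1%. The proportion to astrocytes varied most: there were 3.20, 3.00, 5.79 and 6.22 cells of cluster 9 for each of them, a coefficient of variation of 37.1%, so both Pool libraries lay well above both P7.10.19 libraries. Counting error adds to this variation for every type, CPN and ScPN included, and most for small counts, such as the 32 to 60 astrocytes of a library. Its part in the order of the types was not tested. With 4 libraries no correlation was computed.

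Cells of cluster 9 had read depths in the middle of the named types. The median number of reads per cell was 3128.5 in P7.10.19 replicate 1, 3404 in P7.10.19 replicate 2, 2607.5 in Pool replicate 1 and 3108 in Pool replicate 2. Pool replicate 1 was the lowest, as it was among all P7 cells, whose library medians were 3146, 3309, 2551.5 and 3295 in that order. The mean of the cluster 9 medians was 3062 ± 332 (SD, n = 4), 5th among 9 groups. Within a library, single cells of cluster 9 ran from just above the limit of 1000 reads to 9886 in Pool replicate 1 and 14945 in P7.10.19 replicate 2.

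**Figure D3:**
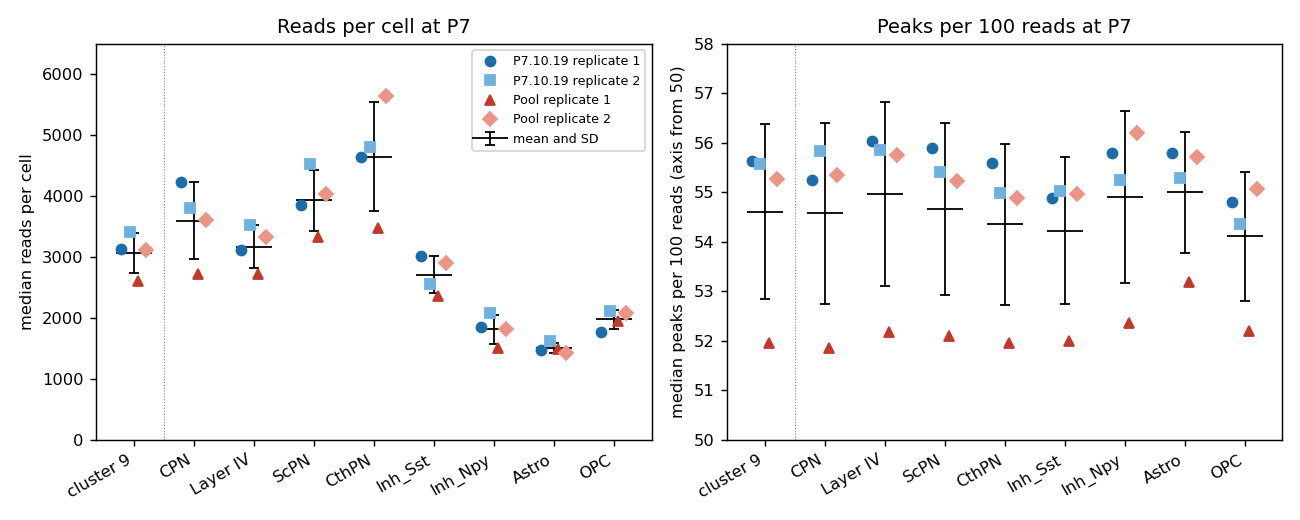
Points give each library's median reads per cell (left, axis from 0) and median peaks per 100 reads (right, axis from 50) for cluster 9 and the 8 named types, with the mean and SD of the 4 libraries in black. Cluster 9 lies level with layer IV on the left, and on the right Pool replicate 1 is lowest in every group.

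In the left side of the plot of depth, cluster 9 lay between the pyramidal types and the rest. All 4 pyramidal types had more reads than cluster 9 and all interneuron and glial types fewer, on the mean of within-library log2 ratios. Layer IV was nearest, with medians of 3115, 3526.5, 2718 and 3331, and cluster 9 was below it in 3 of 4 libraries, at 0.965 times its reads (mean log2 ratio -0.05 ± 0.04, SD, n = 4). Inh_Sst was next in depth, and cluster 9 had 1.13 times its reads (0.18 ± 0.16), higher in 4 of 4 libraries. Against CPN the ratio was 0.858 (-0.22 ± 0.16), lower in 4 of 4 libraries.

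The other types lay farther away. Cluster 9 had 0.779 times the reads of ScPN (log2 ratio -0.36 ± 0.05) and 0.666 times those of CthPN (-0.59 ± 0.19), lower in 4 of 4 libraries for both. The gap was wider to CthPN cluster 18, whose medians averaged 5291 ± 1235 reads, than to cluster 20, with 3689 ± 527 (SD, n = 4). The mean log2 ratio of cluster 9 was -0.76 ± 0.26 to cluster 18 and -0.27 ± 0.15 to cluster 20. Cluster 9 had 1.55 times the reads of OPC (0.63 ± 0.17), 1.69 times those of Inh_Npy (0.76 ± 0.03) and 2.03 times those of astrocytes (1.02 ± 0.14), higher in 4 of 4 libraries for each. All ratios are of library medians, with SD over 4 libraries.

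The number of peaks with a read followed the reads. The median was 1733.5, 1883, 1365.5 and 1705 peaks per cell in the P7.10.19 and Pool libraries in order, a mean of 1672 ± 219 (SD, n = 4). Cluster 9 had 0.948 times the peaks of layer IV (log2 ratio -0.08 ± 0.04), lower in 4 of 4 libraries. It had 1.13 times those of Inh_Sst (0.18 ± 0.16) and 0.857 times those of CPN (-0.22 ± 0.16). By the mean size of the log2 ratios in reads, peaks and peaks per 100 reads, layer IV (0.05), Inh_Sst (0.12) and CPN (0.15) were the types nearest to cluster 9. Astrocytes, at 0.68, were the farthest from it. Because peaks followed reads, this order is mainly one of depth, and likeness of open chromatin was not measured.

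Peaks per read can be compared fully between groups only at equal reads, because reads fall more often in peaks already counted as depth grows. Whether this value tells noisy profiles from rich ones was not tested. Cluster 9 gave 55.6 peaks per 100 reads in each P7.10.19 library, 52.0 in Pool replicate 1 and 55.3 in Pool replicate 2 (library medians). Pool replicate 1 stood apart, and it did so for all P7 cells as well, with 52.1 against 55.3 to 55.5 in the other three libraries. Within libraries the differences from named types were small: the mean ratio of cluster 9 to a type lay between 0.993 (astrocytes) and 1.01 (OPC).

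At matched reads the peaks of cluster 9 were also close to those of the most numerous types. Cells were compared in bins of 500 reads within a library, which covered 77.6% to 94.9% of cluster 9 cells against CPN, layer IV, ScPN and Inh_Sst. The log2 ratio of mean peaks was 0.0017 ± 0.0126 to CPN, -0.0031 ± 0.0094 to layer IV, -0.0037 ± 0.0078 to ScPN and 0.020 ± 0.021 to Inh_Sst (SD, n = 4). None of these 4 means exceeded its SD. For Inh_Sst the SD held a split between the series, with 0.038 in the P7.10.19 libraries and 0.0020 in the Pool libraries. Taken instead as a residual from a line of peaks on reads, the difference exceeded its SD for layer IV (-0.0081 ± 0.0023), ScPN (-0.0077 ± 0.0062) and Inh_Sst (0.013 ± 0.0057), but not for CPN (-0.0015 ± 0.0069). In cells with at least the P7 median of 3030 reads, the binned ratio was -0.0167 ± 0.0122 to layer IV and -0.0179 ± 0.0166 to ScPN. It was 0.0130 ± 0.0072 to Inh_Sst and -0.0128 ± 0.0146 to CPN, whose sign turned. The close means over all depths thus do not hold equally in the deeper cells.

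For the other types the bins covered fewer cells of cluster 9, and the values were less stable. Reads were not matched inside a bin, so differences in depth there enter these ratios. In the bin from 1000 reads of P7.10.19 replicate 1, cluster 9 averaged 737 peaks and all named types 700. Peaks per 100 reads in that bin were 57.3 and 56.6. The part of depth inside bins was not tested. Against OPC the log2 ratio was 0.058 ± 0.044 over bins with 33.7% to 64.7% of cluster 9 cells, and cluster 9 was higher in 4 of 4 libraries. It was 0.095 in the P7.10.19 and 0.022 in the Pool libraries, and 0.033 ± 0.023 as a residual. Against astrocytes it was 0.050 ± 0.054 over 19.1% to 48.4% of cells, with 0.096 in the P7.10.19 and 0.0032 in the Pool libraries. Against Inh_Npy it was 0.011 ± 0.019 over 19.1% to 48.4% of cells, with 0.028 and -0.0053 in the same order. Against CthPN it was -0.012 ± 0.021 over 35.1% to 86.4% of cells, and -0.041 ± 0.014 with bins of 1000 reads. The P7.10.19 libraries thus lay above the Pool libraries against both interneuron and both glial types, and with 2 libraries in each series this was not tested.

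**Figure D4:**
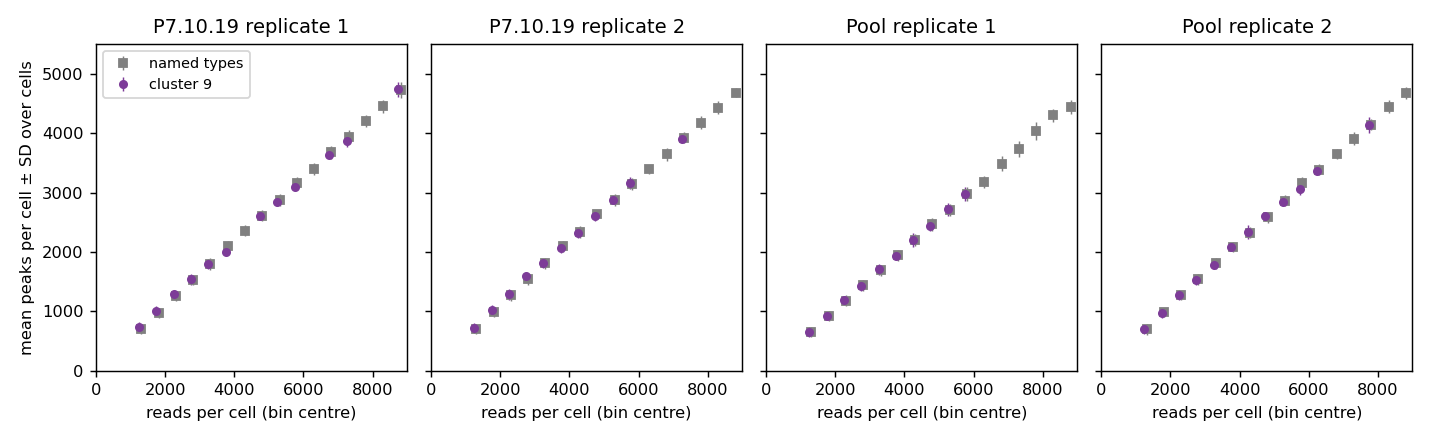
Mean peaks per cell (± SD over cells) are plotted against reads per cell in bins of 500 reads with at least 5 cells, up to 9000 reads, for cluster 9 and for all cells of the 8 named types in each P7 library, with the named types drawn slightly to the right. In each library the points of cluster 9 lie on the line formed by the named types.

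The share of cluster 9, as a mean over libraries, changed little with depth. When the cells of each library were ranked by reads and cut into 5 quintiles of equal size, cluster 9 made up 12.2% ± 1.40 of the cells with the fewest reads. It made up 14.4% ± 2.83, 15.3% ± 2.17 and 13.8% ± 2.08 in the next quintiles and 11.9% ± 2.69 of the cells with the most reads (SD, n = 4). The highest quintile mean was 1.28 times the lowest, the smallest such range of the 9 groups. It was 1.45 for layer IV, 1.64 for CPN, 1.80 for Inh_Sst, 2.62 for ScPN and 4.204 for CthPN. ScPN and CthPN took their highest shares in the deepest quintile, CPN in the 4th, layer IV, like cluster 9, in the middle one and Inh_Sst in the shallowest. For astrocytes it was 40.5, since they were 10.5% of the shallowest and 0.260% of the deepest cells. Single libraries varied more than these means. Cluster 9 ranged from 11.5% to 14.2% in P7.10.19 replicate 1 and from 8.74% to 15.4% in P7.10.19 replicate 2. It ranged from 13.7% to 17.9% in Pool replicate 1 and from 10.8% to 18.5% in Pool replicate 2. Layer IV ranged from 12.9% to 24.1% in P7.10.19 replicate 1 and from 14.9% to 19.9% in Pool replicate 2.

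**Figure D5:**
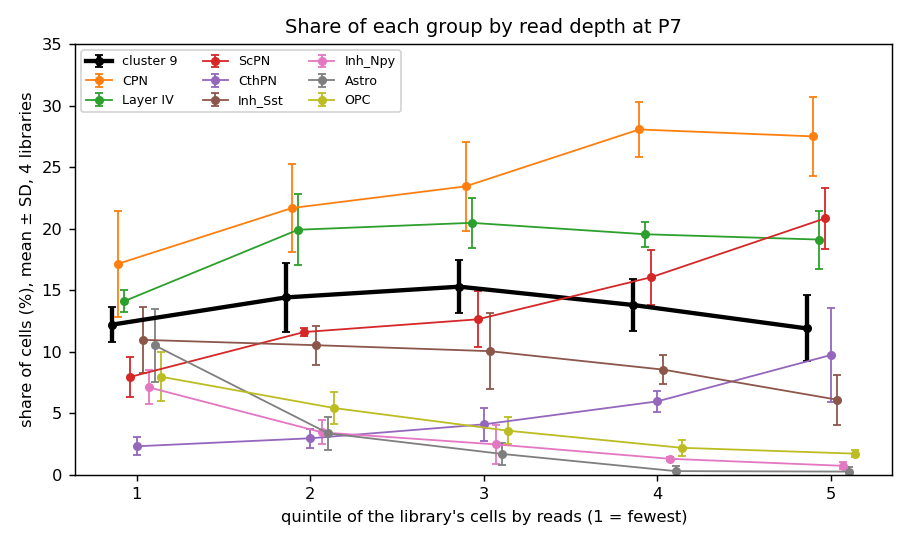
Lines give the share (in %, mean ± SD of 4 libraries) that cluster 9 and each named type took of the cells in each quintile of reads, from the shallowest (1) to the deepest (5). The black line of cluster 9 stays between 11.9% and 15.3%, while ScPN and CthPN climb and astrocytes, OPC and Inh_Npy fall.

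Cluster 9 was neither a shallow nor a very deep group in the plot of shares by read depth. Of its cells, 35 had more reads than the 95th percentile of their library, a mean share of 4.22% ± 1.53 (SD, n = 4). The share was 4.73% ± 0.288 for layer IV, 4.88% ± 1.34 for CPN, 2.54% ± 0.630 for Inh_Sst, 8.60% ± 1.97 for ScPN and 12.6% ± 6.46 for CthPN. The spread of reads inside cluster 9, the upper over the lower quartile, averaged 2.42 ± 0.311, beside 2.42 ± 0.307 in CPN and 2.32 ± 0.124 in layer IV. No treatment of doublets is named for this assay by the methods or labels.

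Cells of cluster 9 were scattered over the barcodes of the plates. The name of each cell holds 4 index parts, A1, A2, P1 and P2, where P1 and P2 here are indices and not ages. The sources do not say which part marks which round of barcoding. The A pair took 87 to 89 combinations per library and the P pair 96. Cluster 9 cells occurred in 73 to 80 of the A pairs and in 81 to 92 of the P pairs of a library, with at most 8 cells in any pair. Layer IV, with more cells, occurred in 80 to 87 of the A pairs and in 88 to 96 of the P pairs.

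By single index value the share of cluster 9 varied by 1.18 to 1.53 times, depending on the index part. It ranged from 12.6% to 14.9% over the 8 values of A1 and from 11.2% to 17.1% over the 11 values of A2 with at least 50 cells. It ranged from 11.3% to 16.0% over the 12 values of P1. The 16 values of P2 separated the libraries by replicate number, with 8 values in both replicate 1 libraries, 8 in both replicate 2 libraries and 0 in common. The share ranged from 12.0% to 16.6% over those of replicate 1, around 14.2% in all, and from 11.2% to 15.8% over those of replicate 2, around 12.9%. The highest share was 1.53 times the lowest over A2, beside 1.37 for layer IV, 1.47 for CPN, 1.71 for ScPN and 2.04 for Inh_Sst. The ratio was 2.29 for CthPN, 3.46 for Inh_Npy, 6.68 for astrocytes and 8.01 for OPC. Astrocytes and OPC both had a lowest share of 0.781%, so few cells set their ratios. Over P1 the ratio was 1.42 for cluster 9, above CPN (1.18), ScPN (1.20) and layer IV (1.36) and below Inh_Sst (1.57). Index value 12 of A2, the highest for cluster 9 over all P7 cells, gave 16.2%, 17.7% and 21.12% in P7.10.19 replicate 1, P7.10.19 replicate 2 and Pool replicate 1, but 12.5% in Pool replicate 2.

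Some barcode names occurred in more than 1 P7 library. Replicate 1 of the P7.10.19 and Pool series shared 333 names and replicate 2 shared 263, and no other pair shared any. Libraries of different replicate number could share none, since their P2 values differed. Of the shared names, 45 (13.5%) and 34 (12.9%) carried the same cluster in both libraries. Neither the share that unrelated cells would give nor the number of names shared by chance was computed. Whether shared names link the libraries was therefore not tested. Among them 45 cells of P7.10.19 replicate 1 belonged to cluster 9, and 9 of these names (20.0%) were in cluster 9 in Pool replicate 1 too, where its share of all cells was 15.2%. For replicate 2 it was 6 of 32 names (18.8%), beside a share of 13.8%. With all cells of shared names left out, cluster 9 made up 13.5% ± 1.43 of P7 cells (SD, n = 4).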

How the data were processed

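Single-cell ATAC-seq was analysed for 4 P7 mouse libraries. Per the methods of the study, the authors aligned reads with Bowtie2 to mm10, removed mitochondrial, unpaired, low-quality and duplicate reads, sampled libraries to a similar depth per cell, called peaks with MACS2 in Scasat, kept cells within limits on reads and peaks, and clustered them after latent semantic indexing. The submitters' processing notes name mm10 and MACS2. The deposited mouse table held counts of reads and of peaks per cell as the authors left them, not normalized beyond that sampling, which therefore also bears on reads per cell, with a cluster and a type for each cell. The marmoset table was not used beyond counting its cells.

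Medians per library and group were taken with Python 3.11.15, pandas 2.3.3 and scipy 1.17.1, and each library weighed equally. Peaks at matched reads were averaged over bins of 500 reads with at least 5 cells of both groups and weighted by cluster 9 cells. Reads were not matched inside a bin, and the part of depth there was not tested. No test was made, because the cluster was defined on these cells. All named types of P7 were compared, and the 3 called nearest to cluster 9 were those with the smallest mean log2 ratio in 3 measures, regardless of sign. No gene is named, since the tables hold none. The cluster and the comparisons were chosen with earlier results of these data known. Alternatives left out each library, used 1 series, 1 peak minimum, deeper cells, pooled cells, means or other depth matching, and, chosen after seeing the data, left out shared barcode names.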

Additional observations from a re-analysis of the deposited data

Results flagged for a closer look

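The 4 libraries were examined for 1 that lay far from the other three in 68 values, and 6 values were flagged, each for Pool replicate 1. Chance flags about 1 in 20 such groups. Median peaks per 100 reads in Pool replicate 1 were 52.0 in cluster 9 (others 55.3 to 55.6), 51.9 in CPN (55.3 to 55.8), 52.2 in layer IV (55.8 to 56.0) and 52.0 in Inh_Sst (54.9 to 55.0). The log2 ratio of cluster 9 to astrocytes was 0.81 in reads (others 1.08 to 1.13) and 0.78 in peaks (others 1.06 to 1.11). That library had the lowest median reads of the P7 libraries, 2551.5 per cell. In the bin from 1000 reads, cluster 9 averaged 52.3 peaks per 100 reads in Pool replicate 1. It averaged 57.3 and 56.7 in the P7.10.19 libraries and 56.4 in Pool replicate 2. All named types together averaged 52.2 in Pool replicate 1, and 56.6, 56.6 and 56.3 in the other libraries in the same order. Pool replicate 1 was thus lowest in this bin too. The part of depth in the log2 ratios to astrocytes was not tested.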

How the results depend on the processing

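The share of cluster 9 kept within 1 SD of 13.5% under every alternative tried, from 12.5% in the P7.10.19 libraries alone to 14.5% in the Pool libraries alone. Leaving out 1 library or using 1 series cannot move the mean by more than the SD between libraries. For those settings this outcome was therefore fixed in advance. It ranged from 12.94% to 14.04% with 1 library left out. Leaving out 1 library gave 2948 to 3213.5 reads, 1601 to 1774 peaks and 54.3 to 55.5 peaks per 100 reads in cluster 9. Among cells with at least the P7 median of 3030 reads, cluster 9 had 4797 reads and 2586 peaks per cell, since this limit removes shallow cells by construction. Taking means over cells in place of medians gave 3690 reads and 1999 peaks. The number of named types with more peaks per 100 reads than cluster 9 was 4, and 2 in the P7.10.19 libraries alone; the cause was not tested. With 1 peak minimum of 552 for all libraries, none of the 32 log2 ratios to named types moved by more than the SD between libraries. In the cells above this median 21 of 31 did, the largest by 0.49, and the ratio of reads to layer IV went from -0.05 to 0.02. The ratio of peaks to astrocytes at matched reads could not be computed there and was 0.12 with bins of 1000 reads. Of 88 log2 ratios of reads recomputed 1 turned its sign, of 88 of peaks 0 did, and of 88 of peaks per 100 reads and 103 of peaks at matched reads 10 and 11 did. Ratios to named types were formed within each library, and they were not tested because the cluster was drawn from these cells.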
